A study of Mus musculus with 17 samples.

Results

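To examine where the histone variant H3.3 lay at the genes that write, read and erase repressive and activating histone methylation, the H3.3 peak lists of Arid1a WT and Arid1a cKO mouse pachytene spermatocytes were searched at 46 listed autosomal genes of the Polycomb, COMPASS, lysine demethylase and H3K9 methylation pathways. The genes were taken by name from a list written with earlier results of these data known, not by their values, and all 46 were found among the 20807 autosomal protein-coding genes of GENCODE M21. A gene was scored as carrying H3.3 if a row of a peak list lay within 1 kb of any of its annotated transcript starts. The list held 20 Polycomb genes (7 of PRC2 and 13 of PRC1), 12 COMPASS genes, 6 demethylase genes and 8 genes of H3K9 methylation and heterochromatin protein 1 (HP1).

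The assay was CUT&RUN, which uses an antibody against H3.3 to bring a nuclease to the nucleosomes that hold it, so that their DNA is cut free in permeabilised cells and sequenced. Pachytene spermatocytes are germ cells in the long mid-prophase stage of the first meiotic division. They had been purified by Sta-Put sedimentation from pooled testes of adult males and cryopreserved. The paper places the floxed line on a CD1 background and states no background for the Stra8-Cre line. Arid1a cKO males were Arid1a fl/fl; Stra8-Cre Tg/0, and Arid1a WT males were Arid1a fl/fl or fl/+ without Cre, so the floxed allele was carried by both genotypes. Stra8-Cre acts in spermatogonia, before meiosis, and the study describes deletion by it as incomplete. In purified cKO pachytene spermatocytes the study detected undeleted Arid1a transcript, which it ascribes to cells that escaped Cre. The cKO fraction therefore likely held cells that kept ARID1A, the putative DNA-binding subunit of the BAF chromatin remodeler. Of the 17 libraries, 5 were made with an H3.3 antibody (2 WT and 3 cKO), and the 12 ARID1A libraries were not analysed here. The replicates of each genotype had been combined into 1 list before deposit, so there is no spread between replicates, no error on a fold and no test of the genotype. The lists hold no RNA level, and neither the labelled cell type nor the loss of Arid1a could be checked in them.

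The proteins encoded by these genes act on the histone tails of promoters. PRC2 methylates H3K27 through EZH1 or EZH2, and PRC1 ubiquitinates H2A through RING1 or RNF2, and together they hold developmental genes silent. COMPASS complexes methylate H3K4 at active promoters and enhancers, and the KDM5 enzymes remove that mark. Methylation of H3K9 marks heterochromatin, where the HP1 proteins bind it, and the KDM3 and KDM4 enzymes remove it. In male germ cells these systems keep somatic genes silent and take part in meiotic prophase, and H3.3 itself is a replication-independent variant that is found at active promoters and on the sex chromosomes when they are silenced.

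The sequences under the strongest cKO row of each group are shown first, because nearly all of these genes have a CpG-rich start. Each is the mm10 sequence of the row, or its central 300 bases where it was wider, read 5′ to 3′ on the strand of the gene, with every CpG in capitals. The Jarid2 sequence is chr13:44730571-44730870 on the plus strand, from 203 bases upstream to 96 bases downstream of the nearest annotated start. The Ash2l sequence is chr8:25840287-25840579 on the minus strand, and covers 122 bases upstream to 170 bases downstream of a start. The Kdm4a sequence, chr4:118179419-118179711 on the minus strand, runs from 57 bases upstream to 235 bases downstream. The Cbx1 sequence, chr11:96789173-96789472 on the plus strand, runs from 76 bases upstream to 223 bases downstream.
Jarid2: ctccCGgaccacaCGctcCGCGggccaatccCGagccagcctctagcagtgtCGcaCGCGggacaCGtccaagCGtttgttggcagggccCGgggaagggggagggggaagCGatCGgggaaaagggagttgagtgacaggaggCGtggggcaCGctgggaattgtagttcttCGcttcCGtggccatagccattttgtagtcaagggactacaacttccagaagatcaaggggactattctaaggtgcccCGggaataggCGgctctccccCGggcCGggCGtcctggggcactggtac
Ash2l: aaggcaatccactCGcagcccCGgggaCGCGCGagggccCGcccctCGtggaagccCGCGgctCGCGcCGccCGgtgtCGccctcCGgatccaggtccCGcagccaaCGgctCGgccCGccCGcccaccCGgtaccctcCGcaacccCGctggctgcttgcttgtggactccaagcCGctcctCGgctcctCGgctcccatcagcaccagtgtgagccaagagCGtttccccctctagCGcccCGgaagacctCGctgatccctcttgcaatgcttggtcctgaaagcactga
Kdm4a: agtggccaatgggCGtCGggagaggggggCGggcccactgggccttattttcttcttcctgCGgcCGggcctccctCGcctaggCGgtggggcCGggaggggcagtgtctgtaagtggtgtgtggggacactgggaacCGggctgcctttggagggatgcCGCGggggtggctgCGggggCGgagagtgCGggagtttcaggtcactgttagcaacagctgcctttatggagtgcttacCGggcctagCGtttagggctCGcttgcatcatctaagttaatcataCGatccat
Cbx1: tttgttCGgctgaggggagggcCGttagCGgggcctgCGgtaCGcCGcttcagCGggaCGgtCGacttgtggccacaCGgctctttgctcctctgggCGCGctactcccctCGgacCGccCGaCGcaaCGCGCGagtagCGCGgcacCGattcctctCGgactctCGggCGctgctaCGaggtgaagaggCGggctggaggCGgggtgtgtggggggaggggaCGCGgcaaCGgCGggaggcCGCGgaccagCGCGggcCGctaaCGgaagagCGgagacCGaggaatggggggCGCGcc

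These rows held 22 CpGs in 300 bases at Jarid2, 30 in 293 at Ash2l, 18 in 293 at Kdm4a and 42 in 300 at Cbx1. For comparison, the starts of 2 genes without a row are shown, the ones with the most and the fewest CpGs around a start. The Rybp sequence is chr6:100287335-100287634 on the minus strand and the Rbbp5 sequence is chr1:132477215-132477514 on the plus strand, each centred on a start.
Rybp: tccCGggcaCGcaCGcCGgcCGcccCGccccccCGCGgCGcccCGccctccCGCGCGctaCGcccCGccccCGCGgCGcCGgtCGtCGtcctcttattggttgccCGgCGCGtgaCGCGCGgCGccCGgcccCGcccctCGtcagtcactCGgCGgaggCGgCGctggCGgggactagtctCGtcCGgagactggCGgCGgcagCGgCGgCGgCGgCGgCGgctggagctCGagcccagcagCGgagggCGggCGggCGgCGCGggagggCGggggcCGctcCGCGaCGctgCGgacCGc
Rbbp5: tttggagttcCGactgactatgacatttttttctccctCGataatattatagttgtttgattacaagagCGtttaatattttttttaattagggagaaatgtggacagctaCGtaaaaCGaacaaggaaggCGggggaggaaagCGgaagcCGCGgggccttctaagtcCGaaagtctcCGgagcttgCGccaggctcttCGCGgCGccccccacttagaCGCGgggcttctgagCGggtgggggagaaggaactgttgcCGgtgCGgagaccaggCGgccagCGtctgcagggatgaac

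Rybp, with no row, held 60 CpGs in these 300 bases, more than any of the 4 bound sequences, and Rbbp5 held 22, as many as Jarid2. Genes with and without a row overlapped in the CpG content of their starts.

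In Arid1a cKO, 35 of the 46 genes carried an H3.3 row within 1 kb of a start, a share of 76.1% (95% Wilson interval 62.1 to 86.1%). Over all autosomal protein-coding genes the share was 29.5%, or 6145 of 20807 genes. The interval covers counting error only, and treats genes as independent. The groups differed in their counts, with rows at 16 of 20 Polycomb genes (80%, 58.4 to 91.9%), 9 of 12 COMPASS genes (75.0%, 46.8 to 91.1%), 6 of 6 demethylase genes (100%, 61.0 to 100%) and 4 of 8 H3K9 and HP1 genes (50.0%, 21.5 to 78.5%). These intervals overlap, and the interval of the H3K9 and HP1 genes includes the share of all autosomal genes. Within Polycomb, 5 of 7 PRC2 genes and 11 of 13 PRC1 genes had a row.

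**Figure D1:**
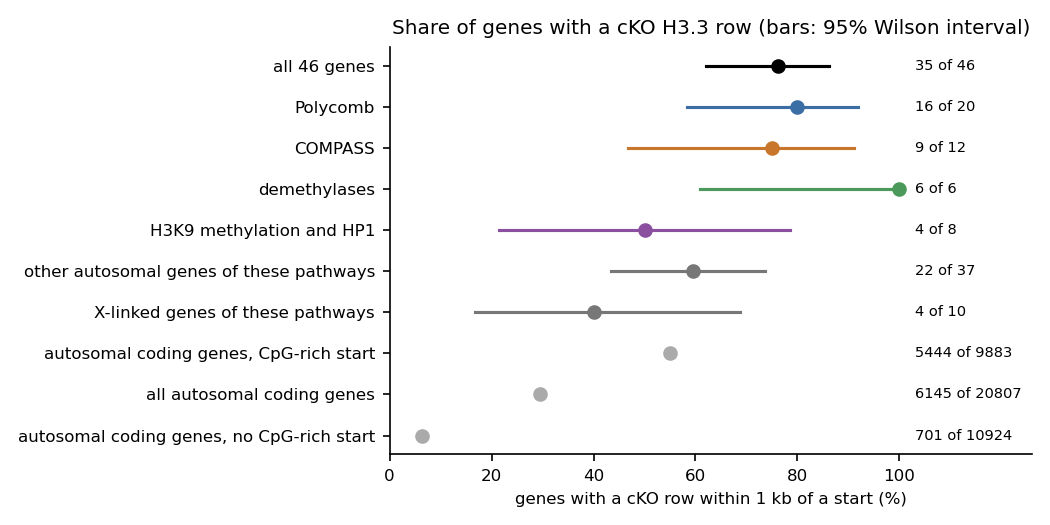
The share of genes with a cKO H3.3 row within 1 kb of a start is plotted in percent on the horizontal axis for each gene group, with 95% Wilson intervals as bars and the counts at the right. The listed genes sit at 35 of 46, above all autosomal coding genes (6145 of 20807) and above those with a CpG-rich start (5444 of 9883), and the intervals of the 4 groups overlap.

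In Arid1a WT, 0 of the 46 genes carried a row, which allows a share of up to 7.71% (upper Wilson limit), and 0 of the 20807 autosomal protein-coding genes did (0%). A missing row is not an absence of H3.3. The paper reports H3.3 signal above IgG at the starts of autosomal genes regulated by ARID1A, with a stronger signal in cKO than in WT. The WT list held 228 rows in all, of which 4 were autosomal, against 12183 rows in 6552 regions in the cKO list. The lists also differed in how weak a row they held. No WT row had a fold below 4.85, whereas cKO rows went down to 2.80, and the lowest -log10 q was 2.20 for WT and 1.35 for cKO. Of the 35 genes with a cKO row, 11 had one of at least the lowest WT fold (31.4%, against 28.2% over autosomal genes with a row). The other 24 had a cKO fold below any in the WT list. The depth of the libraries is unknown, and the genotype, the depth, the number of libraries combined and the calling limit of each list cannot be told apart for these genes.

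The fold of a row, the ratio of H3.3 to IgG-derived background pileup that the peak caller assigned, was of ordinary size at these genes. The median over the 35 genes was 4.30 (range 2.85 to 7.77) against 4.12 (2.81 to 14.9) over all 6145 autosomal genes with a row, and 18 of the 35 lay at or above the latter. By group the median fold was 3.59 at the Polycomb genes, 4.30 at the COMPASS genes, 5.00 at the demethylase genes and 5.38 at the H3K9 and HP1 genes with a row. Polycomb thus had a larger share of genes with a row than the H3K9 and HP1 group and a lower median fold at them. With rows of a -log10 q of at least 5, 13 of 46 genes had one (28.3%, 17.3 to 42.5%) against 9.56% of all autosomal genes and 18.1% of those with a CpG-rich start, a share within that interval. These 13 comprised 3 of 20 Polycomb genes, 3 of 12 COMPASS genes, 4 of 6 demethylase genes and 3 of 8 H3K9 and HP1 genes. At that limit the intervals of the Polycomb share, 15.0% (5.24 to 36.0%), and of the COMPASS share, 25.0% (8.89 to 53.2%), included the share of all autosomal genes.

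**Figure D2:**
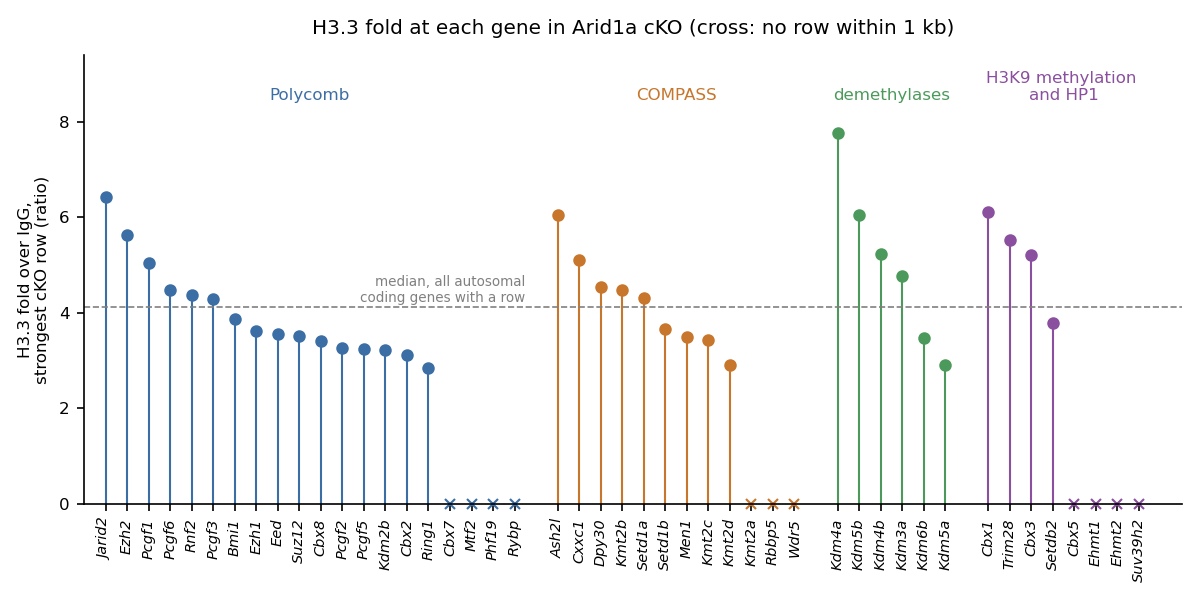
The fold over IgG of the strongest cKO row within 1 kb of a start is plotted for each of the 46 genes, grouped by pathway and ordered by fold, with a cross for genes without a row and a dashed line at 4.12, the median over all autosomal coding genes with a row. Kdm4a has the highest value at 7.77 and Ring1 the lowest at 2.85, and 10 of the 16 Polycomb genes with a row lie below the line.

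Among the PRC2 genes, both alternative catalytic subunits carried H3.3 in Arid1a cKO. Ezh2, the main H3K27 methyltransferase of dividing cells, had a fold of 5.62 over a region of 1276 bp, the widest of the Polycomb genes. Ezh1, its paralogue, had a fold of 3.62 over 401 bp. The centres of these regions lay 190 bp and 95 bp into the genes. The genes of the core subunits that every PRC2 contains had folds near that of Ezh1 and below that of Ezh2. Eed, whose product binds trimethylated H3K27, had a fold of 3.55 over 259 bp, and Suz12, which encodes the scaffold, had 3.51 over 786 bp. Jarid2, an accessory subunit that helps to recruit PRC2, had the strongest Polycomb row, with a fold of 6.43 over 1044 bp centred 54 bp upstream of a start. The accessory Polycomb-like genes Mtf2 and Phf19 had no row, the nearest cKO row lying 78187 bp from a start of Mtf2 and 33177 bp from a start of Phf19.

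Both catalytic PRC1 genes had a row over a start. Rnf2, which encodes the main H2A ubiquitin ligase RING1B, had a fold of 4.38 over 616 bp, and Ring1, its paralogue, had a fold of 2.85 over 397 bp. The value at Ring1 was the lowest of the 35 genes, close to the lowest fold of the list, 2.80.

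All 6 listed Pcgf genes, whose products define the PRC1 subtypes, had a row. The canonical subunits Bmi1 (PCGF4) and Pcgf2 (MEL18) had folds of 3.87 over 218 bp and 3.26 over 538 bp. The Bmi1 region was the narrowest of the 35 and ended 7 bp upstream of the start. Among the variant subunits, Pcgf1 had a fold of 5.05 over 885 bp, Pcgf6 of 4.48 over 235 bp and Pcgf3 of 4.30 over 236 bp. Pcgf5 had 1 row, of fold 3.24, whose near edge lay 486 bp into the gene, close to a start of the non-coding gene Gm47735. It was the gene just inside the 1 kb limit, and the gene just outside it was Ehmt2, at 2728 bp.

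Of the chromobox genes, which encode the subunits of canonical PRC1 that bind methylated H3K27, Cbx2 and Cbx8 had a row and Cbx7 did not. Cbx2 had a fold of 3.12 over 943 bp, and Cbx8, a neighbour on chromosome 11, had a fold of 3.41 over 799 bp. The nearest row to Cbx7 lay 4515 bp from a start, inside the gene, with a fold of 4.60 over 144 bp. Kdm2b, which brings variant PRC1 to unmethylated CpG islands, had 2 regions at different starts, of fold 3.22 over 300 bp and fold 2.88 over 703 bp. Rybp, a subunit of variant PRC1, had no row, the nearest lying 383406 bp from a start.

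**Figure D3:**
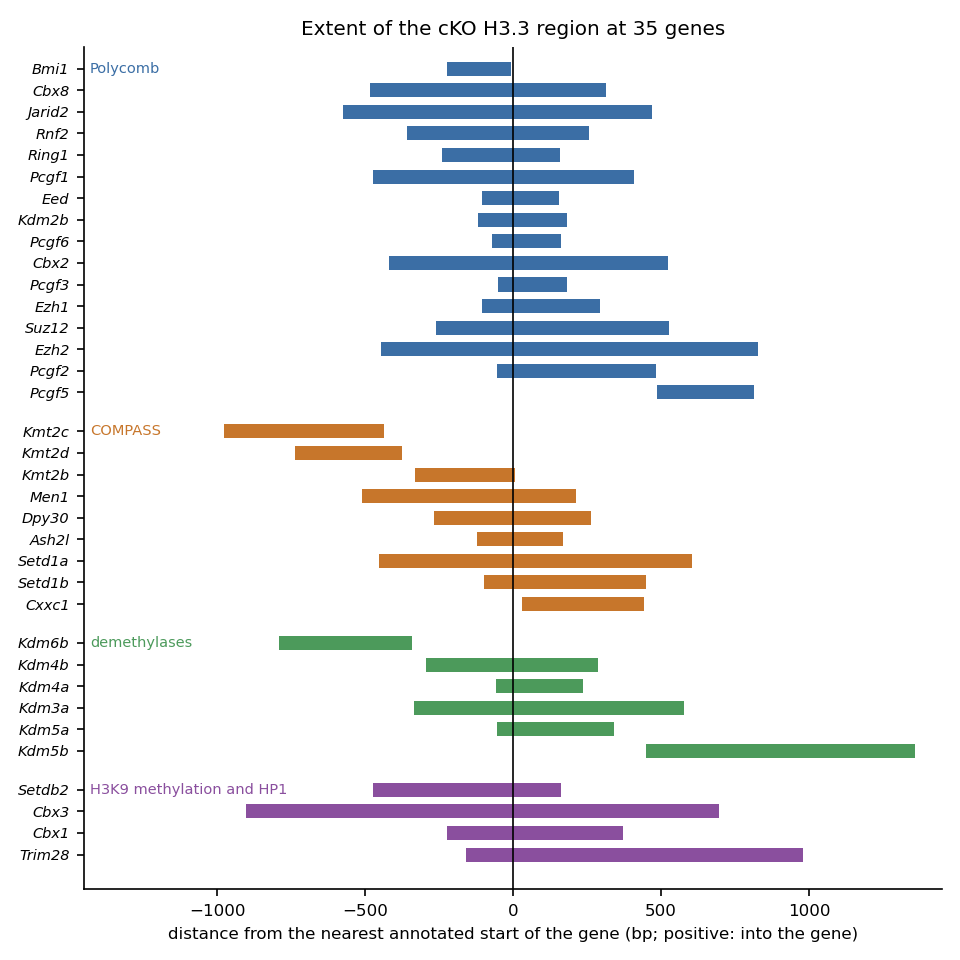
The extent of the cKO region that holds the strongest row is drawn for each of the 35 genes as a bar, in bp from the nearest annotated start of the gene (vertical line, positive into the gene), coloured by group. The bars of 28 genes cross the start, and those of Kmt2c, Kmt2d, Kdm6b, Kdm5b and Pcgf5 lie more than 300 bp from it.

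Of the 6 methyltransferase genes of COMPASS, 5 had a row. Of the pair whose products associate with menin, Kmt2b had a fold of 4.47 over a region of 339 bp upstream whose edge reached its start, whereas Kmt2a had no row, the nearest lying 20567 bp away. Kmt2c and Kmt2d, which methylate H3K4 at enhancers, both had rows upstream of their starts rather than over them. The Kmt2c region, of fold 3.42 over 542 bp, ended 435 bp upstream of the start, near the non-coding gene 4831440E17Rik. The Kmt2d region, of fold 2.91 over 363 bp, ended 375 bp upstream, near the non-coding genes 5730414N17Rik and Gm49437. Reads at these regions cannot be assigned to 1 of the neighbouring starts. Setd1a and Setd1b, the enzymes of the complex that places most H3K4 trimethylation, had rows over their starts, of fold 4.30 over 1061 bp and 3.66 over 549 bp.

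Of the 4 core subunits that all COMPASS complexes share, Ash2l and Dpy30 had a row and Wdr5 and Rbbp5 did not. Ash2l had the strongest COMPASS row, of fold 6.04 over 293 bp, and Dpy30 had a fold of 4.54 over 534 bp centred 1 bp upstream of a start. The nearest rows to Wdr5 and Rbbp5 lay 581203 bp and 59660 bp from a start. Cxxc1, which encodes the CpG-binding subunit CFP1 of the SETD1 complexes, had a fold of 5.12 over 416 bp that began 29 bp into the gene. Men1, which encodes menin, had a fold of 3.49 over 724 bp.

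Every listed demethylase gene had a row, including enzymes that act on opposite marks. Kdm4a, a demethylase of H3K9 and H3K36, had the highest fold of the 46 genes, 7.77 over 293 bp, at the 98.0th percentile of autosomal genes with a row. Its paralogue Kdm4b had a fold of 5.23 over 583 bp, and the H3K9 demethylase Kdm3a had a fold of 4.77 over 914 bp. The H3K4 demethylase Kdm5b had a fold of 6.06 over 909 bp, in a region that began 450 bp inside the gene. Kdm5a, its paralogue, had a fold of 2.91 over 396 bp, within 1 kb of a start of Ccdc77. Kdm6b, which removes methyl groups from H3K27, had a single row of fold 3.48 over 452 bp, and 4 cKO regions overlapped the gene as a whole. The row lay inside the gene, 341 bp upstream of an internal start. With protein-coding transcripts only, curated RefSeq starts, 1 most upstream start per gene or at least 2 overlapping rows, 5 of 6 demethylase genes had a row (83.3%). The shares over all autosomal genes in these settings were 27.1 to 29.6%. Kmt2d and Kdm5a had the same fold, 2.9061, which 917 rows of the list share.

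The H3K9 and HP1 genes with a row were a pair of HP1 genes, the corepressor gene Trim28 and 1 methyltransferase gene. Cbx1 (HP1 beta) had a fold of 6.12 over 595 bp. Cbx3 (HP1 gamma) had a fold of 5.22 over 1601 bp, the widest of the 35 regions, with a start of Hnrnpa2b1 within 1 kb. Cbx5 (HP1 alpha) had no row, the nearest lying 65124 bp away. Trim28, the corepressor that brings H3K9 methylation to targets of KRAB zinc finger proteins, had a fold of 5.54 over 1140 bp. Another coding gene started within 1 kb of a start of 5 of these 8 genes, against 0 of the Polycomb and COMPASS genes. Of the regions in this group, those at Cbx3 and Setdb2 lay within 1 kb of another coding start. Their rows need not belong to the listed gene.

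Of the 4 methyltransferase genes in this group, only Setdb2 had a row, of fold 3.79 over 636 bp, with a start of Cab39l within 1 kb. Ehmt1 and Ehmt2, which encode the partner enzymes that methylate H3K9 in euchromatin, both had none, nor did Suv39h2, a heterochromatin enzyme expressed in testis. The nearest row to Ehmt2 had a fold of 2.91 and lay inside the gene, within 1 kb of a start of Slc44a4. The nearest rows to Ehmt1 and Suv39h2 were 29897 bp and 37364 bp away.

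The regions resembled those of other genes in shape and place. Their median width was 542 bp (218 to 1601) against 450 bp (14 to 4450) over autosomal genes with a row. The region held a start in 28 of 35 genes (80%, against 76.7%), and its centre lay a median of 104 bp from the nearest start, against 112 bp. At least 2 overlapping rows made up the region in 32 of 35 genes (91.4%), against 91.5% of autosomal genes with a row, and the exceptions were Pcgf5, Kdm6b and the stronger region of Kdm2b. At the listed genes the overlapping rows of a region carried the same fold and -log10 q, so they are not separate evidence for it. A non-coding gene started within 1 kb of the region at Eed, Rnf2, Ring1, Pcgf5, Kmt2b, Kmt2c, Kmt2d and Setd1b, and the counts are of genes near a row and not of rows assigned to 1 gene. The regions held a median of 10.6 CpGs per 100 bp (4.65 at Kdm6b to 14.7 at Kdm2b) against 10.2, and a median GC content of 70.2% against 69.3%.

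**Figure D4:**
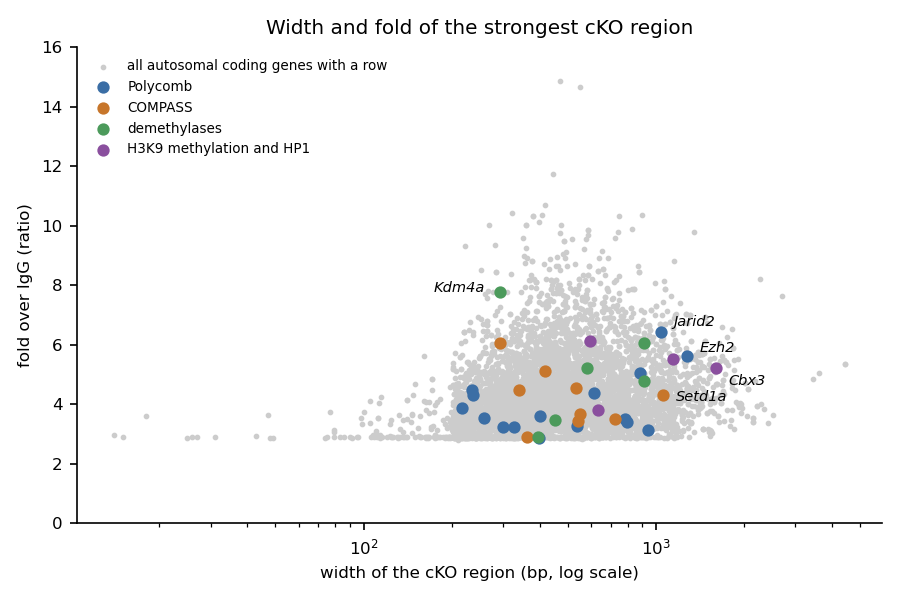
The fold over IgG of the strongest cKO row is plotted against the width of its region in bp (log scale) for all 6145 autosomal coding genes with a row (grey) and for the 35 listed genes (coloured by group). The listed genes lie within the grey cloud, between 218 and 1601 bp and between fold 2.85 and 7.77.

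The listed genes differed from autosomal genes at large in their starts, and these properties moved with the share. A CpG-rich start (GC of at least 55% and observed over expected CpG of at least 0.6 in 1 kb) was present in 43 of the 46 (93.5%), against 47.5% of all autosomal genes. The median number of annotated starts was 6.5 against 3. Among autosomal genes, 55.1% of those with a CpG-rich start had a cKO row and 6.42% of those without one did. With a CpG-rich start and at least 3 starts the share was 57.9%. The corresponding share among the listed genes with a CpG-rich start was 34 of 43 (79.1%, 64.8 to 88.6%). Of the 3 genes without a CpG-rich start, Kdm6b had a row and Mtf2 and Rbbp5 did not. The part of CpG content, of the number of starts and of transcription, which the lists do not record, in the share of the listed genes was not tested.

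By number of CpGs in the 1 kb around the start with the most, the share over autosomal genes went from 0.226% at 0 to 19 CpGs to 3.90% at 20 to 39, 28.2% at 40 to 59, 53.3% at 60 to 79, 59.2% at 80 to 99 and 61.6% at 100 or more. The listed genes had rows at 2 of 4, 7 of 9, 12 of 15 and 14 of 18 genes in the last 4 of these classes. Among those with rows the median was 96 CpGs, and among those without it was 90.

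**Figure D5:**
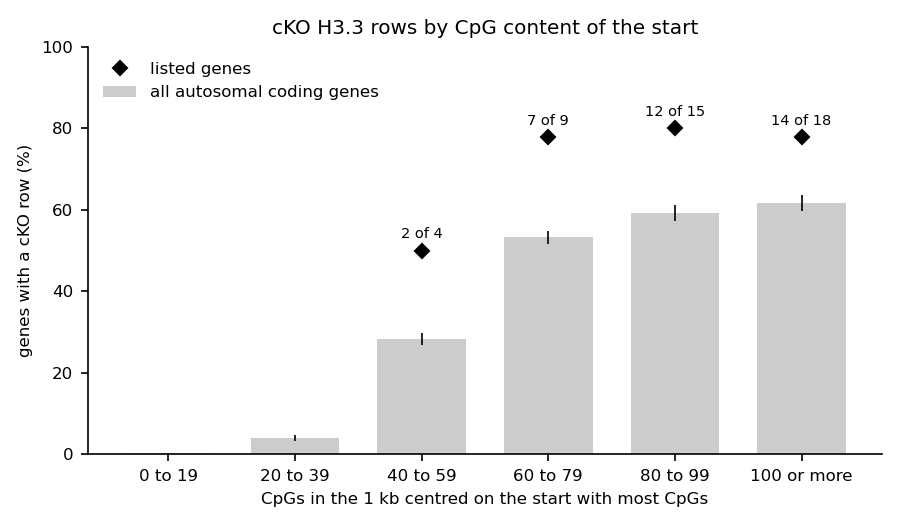
Grey bars give the percent of all autosomal coding genes with a cKO row in each class of CpG number in the 1 kb around a start, with 95% Wilson intervals, and diamonds give the listed genes with their counts. The grey share is 0.226% in the lowest class and 61.6% in the highest, and the diamonds stand above the bars in each of the 4 classes that hold listed genes.

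Promoter motifs were counted on both strands in the window from 250 bases upstream to 50 bases downstream of 1 start per gene, the one with the most CpGs. The GC box GGGCGG was present at 31 of 46 genes (67.4%), against 50.6% of all autosomal windows and 79.1% of those at CpG-rich starts. It was present at 10 of the 11 genes without a row and at 21 of the 35 with one (60%), whereas over all autosomal genes with a CpG-rich start it was at 77.5% of those without a row and 80.3% of those with one. The window need not cover the row: the Ash2l and Kdm4a row sequences shown above hold 4 and 2 GC boxes, and the windows of both genes hold 0. The ETS core CCGGAAG was found at Cxxc1, Kdm3a, Kdm5a and Pcgf1 (8.70%), against 12.3% of all autosomal windows and 18.2% of those at CpG-rich starts. Each of the 4 genes had a row, and over CpG-rich starts the motif was at 22.5% of genes with a row and 13.0% of those without. The CCAAT box was found at 14 genes (30.4%), against 35.7% of all autosomal windows and 32.0% of those at CpG-rich starts. The YY1-type sequence AAGATGGCG occurred at Kmt2b, Pcgf1, Phf19 and Suv39h2 (8.70%), against 2.44% and 3.86%. The CRE TGACGTCA was found at Cbx8 and Suv39h2 (4.35%), against 2.40% and 3.35%. The NRF1-type sequence GCGCATGC was found at Pcgf3 (2.17%), against 3.55% and 5.39%. Matches of different motifs were counted even where their letters overlapped, and a match is a description of the window only.

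A further 37 autosomal genes of the same pathways, taken by name with earlier results known, gave a lower share than the 46, with overlapping intervals. Of these, 22 had a cKO row (59.5%, 43.5 to 73.7%), near the 55.1% of autosomal genes with a CpG-rich start, and none had a WT row. The difference was widest in Polycomb, where 6 of 15 had a row (40.0%, 19.8 to 64.2%). They were Phf1 (fold 5.73), Rbbp4 (5.60), Bap1 (4.68), Aebp2 (4.03), Asxl1 (3.41) and Phc3 (3.40). Those without one included Epop, Cbx6, Phc1, Phc2, Yaf2, L3mbtl2, Scmh1 and Asxl2. Rows were present at 5 of 7 other COMPASS genes (all but Pagr1a and Ncoa6), 7 of 9 other demethylase genes (all but Kdm7a and Phf2) and 4 of 6 other H3K9 genes (all but Setdb1 and Atf7ip). The strongest was at Wiz, a zinc finger partner of EHMT1 and EHMT2, with a fold of 7.08 over 834 bp. Over the 46 and the 37 genes together, the H3K9 methyltransferase genes Ehmt1, Ehmt2, Suv39h2 and Setdb1 had no row, whereas Setdb2 and Prdm2 had one. These genes were brought together from both lists with their rows known. They are too few to set apart from the 29.5% of all autosomal genes with a row, or the 55.1% at CpG-rich starts.

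The pathways also have members on the X chromosome, which is normally silenced in pachytene spermatocytes. The paper reports that this silencing failed in Arid1a cKO, the genotype of the rows described here. Rows were present in Arid1a cKO at 4 of 10 such genes (40.0%, 16.8 to 68.7%), where 18.8% of all X-linked protein-coding genes had one. The X-linked H3K27 demethylase gene Kdm6a had a fold of 3.55 over 1103 bp. The PRC1 corepressor genes Bcor and Bcorl1 had folds of 4.09 and 3.57, and Rbbp7, a histone-binding subunit of PRC2, had a fold of 2.90. No row was found at Scml2, Kdm5c, Phf8, Suv39h1, Hcfc1 or Ogt, and no WT row at any of the 10 or of the 948 X-linked protein-coding genes (0%). The regions at the 4 genes were 849 to 1103 bp wide.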

How the data were processed

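The authors trimmed the reads with Trim Galore, aligned them to mm10 with Bowtie2, removed duplicates with Picard and ran MACS2 in broad mode on every library. The control was a rabbit IgG library from a separate study, and the H3.3 antibody was a mouse monoclonal. That control came from pachytene-enriched cells of juvenile testes, whereas the H3.3 libraries came from Sta-Put purified cells of adults. Every fold is relative to this control. They intersected the replicates with bedtools into 1 list per genotype. Each deposited row carries a fold enrichment (a ratio of pileups) and the deposited -log10 q of its peak, the value used here (a -log10 p was also deposited and not used). Sequencing depth is unknown. Columns left unmatched numbered 0, and the lists hold no comparison made by the authors.

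Rows overlapping by at least 1 bp were merged into regions. A gene was scored by rows within 1 kb of any of its GENCODE M21 starts (mm10, 1-based), and described by the row of highest fold. Widths given with a fold at genes with a row are those of the merged region. Overlapping rows of different width shared the same fold, as at Pcgf2 (3.26 for rows of 538 and 139 bp). A fold therefore need not be the average over the width printed beside it. Offsets run from the nearest start to the centre of the region. Shares have 95% Wilson intervals. CpG content and motifs were read from the GRCm38 genome. The scoring was tested on simulated data. Python 3.11.15, numpy 2.4.6, pandas 2.3.3, scipy 1.17.1, pysam 0.24.0, samtools 1.23.1 and matplotlib 3.10.9 were used.

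The members and lists were chosen with earlier results of these data known. All 46 genes are named, and other genes of the pathways are named by counts, by highest fold and, for 10 or fewer, by absence of a row, except for an item that is not reported here. Groups came from sample titles. Alternatives changed the starts used, the distance, the q limit, the number of overlapping rows required and the genes compared.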

Additional observations from a re-analysis of the deposited data

How the results depend on the processing

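Across 9 results and 100 alternatives, 82 values stayed within the counting interval of the reported share and 18 moved beyond it. The median fold, which ranged from 3.83 to 5.54, was held to within 1.5 times instead. The intervals of the small groups are wide (21.5 to 78.5% for the H3K9 and HP1 genes), so staying within them says little. The share of the 46 genes with a cKO row exceeded that of all autosomal genes under every alternative run on both. The limit on q moved the most. With a -log10 q of at least 3 the share was 54.4% for the 46 genes, 40.0% for Polycomb, 43.2% for the other autosomal genes of these pathways and 20.8% for all autosomal genes. With at least 5 these were 28.3%, 15.0%, 16.2% and 9.56%, and COMPASS fell to 25.0%. Where a row's centre had to lie between 1 kb before and 100 bp after a start, they were 60.9% for the 46 genes, 40.5% for the other pathway genes and 21.7% for all autosomal genes. The share over all autosomal genes, whose interval is narrow, was also 27.2% with 1 most upstream start per gene, 28.9% within 500 bp, 27.1% with at least 2 overlapping rows, 24.9% for genes with no other coding start within 1 kb, 39.4% for genes with 3 or more starts and 55.1% for genes with a CpG-rich start. The choice of 1 start per gene left 29 of the 46 genes with a row (63.0%). The count of 0 WT rows at the 46 genes held under each of its alternatives, but most could not have changed it. Only rows within 2 kb and curated RefSeq starts could have added a WT row. The other settings could only remove rows or starts. The WT list, with 228 rows in 228 regions, has no region of 2 overlapping rows, so requiring them emptied it.

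No paired analysis was possible because the replicates of a genotype were deposited as 1 combined list, which also prevents leaving out any library. H3.3 below the calling limit is not recorded in the lists.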
